A study of Chrysanthemum x morifolium with 6 samples.

Results

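In leaves of chrysanthemum (Chrysanthemum x morifolium, cultivar Jinba), 249 of 365669 transcript features were listed at 0 in all 3 control libraries and present in all 3 libraries from cold-treated plants. A feature is 1 row of the deposited expression table. Members were chosen on the FPKM values as deposited (fragments per kilobase of feature, relative to all mapped fragments). Each member had 0 FPKM in every control library, at least 1 FPKM in every cold library and a mean of at least 10 FPKM over the cold libraries. These values define the set, so the absence in control and the presence in cold are a description and carry no test. The features are called cold-only features below, a short name for this rule.

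All plants were raised from tissue-cultured buds for 30 days on MS medium with 16 h of light a day, at 25 °C in the light and 22 °C in the dark, then potted in peat and perlite and given 5 days to settle. Control plants stayed in normal conditions. Cold-treated plants spent 24 h at 4 °C, followed directly by 4 h at -4 °C, so chilling and subzero exposure cannot be told apart. The design text says that leaves of 3 biological replicates were mixed for each treatment and speaks of 2 samples in all, while each condition has 3 libraries here. The libraries of a condition may therefore come from 1 mixture, and any spread or p-value below measures the difference between libraries, which may be technical.

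When temperate plants are chilled, a fast transcriptional programme sets in. In Arabidopsis, transcription factors of the CBF/DREB1 family switch on cold-regulated (COR) genes whose products include dehydrins and other hydrophilic proteins that protect membranes and enzymes during freezing, and many of these genes are barely expressed at mild temperature. Cultivated chrysanthemum is polyploid, so a gene is usually present in several similar copies, each with its own splice forms, and a short read can fit more than one of them. The table pairs no feature with a gene name, sequence, length or position, so no member can be assigned to such a pathway, and the labelled leaf tissue could not be checked against its marker genes. In bulk leaf RNA, more cells that express a transcript and more RNA per cell cannot be told apart.

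Some facts of the whole libraries bear on a listed 0. FPKM summed to between 2577065 and 2648484 per library. Counts are not given, so absolute depth is unknown. Relative depth, read from the steps between the lowest values, was 0.74 to 1 in the control libraries and 0.85 to 0.96 in the cold libraries, with control 1 set to 1, and control 2 was the shallowest of the 6. Median-of-ratios scaling factors separated the groups, lying between 1.08 and 1.10 for control and between 0.965 and 0.980 for cold. The part of depth and scaling in the zeros was not tested. Values are rounded to 2 decimals, and a listed 0 can also be a failed assignment of reads. Among all features at 10 FPKM or more in both other libraries of a group, 0.734% to 0.884% were listed at 0 in the library that remained.

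The cold-only features were a small and mostly low part of the cold-leaf transcriptome. They made up 0.802% of the 31039 features that averaged at least 10 FPKM in cold. Together they summed to 9599, 9934 and 9625 FPKM in cold 1 to 3, which was 0.376% ± 0.00664 of the FPKM total (SD, n = 3). Their mean level in cold had a median of 15.7 FPKM, with quartiles at 12.2 and 31.7 FPKM and a highest value of 507 FPKM. By class, 147 members averaged from 10 to under 20 FPKM, 66 from 20 to under 50, 15 from 50 to under 100, and 21 at 100 FPKM or more. The 10 highest members carried 32.9% ± 0.747 of the summed FPKM of all members (SD, n = 3).

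**Figure D1:**
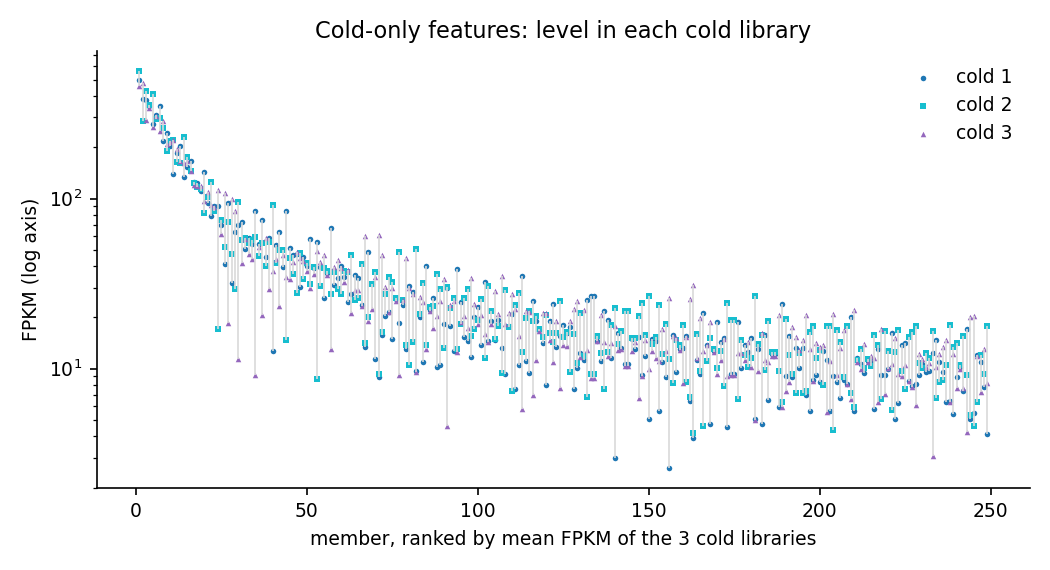
FPKM (log axis) of the 249 cold-only features in cold 1, cold 2 and cold 3, ranked by their mean over the 3 cold libraries; each grey line joins the lowest and highest library of 1 member. All control values are 0 and are not drawn. Levels run from 507 FPKM down to 10.03 FPKM, and the libraries of a member lie closer together at the top of the ranking than lower down.

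The feature with the highest level, Cluster-2961.22882, was listed at 0 in control 1, control 2 and control 3. It had 496, 565 and 461 FPKM in cold 1 to 3 (507 ± 52.8, SD, n = 3). It ranked 475 among all features by mean cold level. The second, Cluster-2961.277448, was also listed at 0 in every control library. It had 384, 286 and 475 FPKM in cold 1 to 3 (382 ± 94.6, SD, n = 3), so its highest cold library was 1.66 times its lowest. The file gives no gene name for either, and the other members are called here by their rank.

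The next 8 members lay between 211 and 366 FPKM on average and fell into tight and loose cases. The third had 380, 431 and 288 FPKM in cold 1 to 3, and the seventh had 351, 297 and 250 FPKM. The fifth had 274, 412 and 262 FPKM, with cold 2 apart from the other two. The other 5 include members that were nearly level across libraries.

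The fourth had 351, 357 and 338 FPKM, with a coefficient of variation (SD over mean) of 2.70%. The sixth had 309, 294 and 304 FPKM (2.52%), and the tenth had 204, 217 and 214 FPKM (3.29%). The eighth had 218, 259 and 285 FPKM and the ninth 243, 190 and 208 FPKM. In the order of these 10 levels, the ranges over the 3 cold libraries overlapped for every one of the 9 pairs of neighbouring ranks, so the order between neighbours is not resolved.

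At the lower edge of the rule, the 3 lowest members averaged 10.09, 10.07 and 10.03 FPKM. The last of these had 4.14, 17.7 and 8.22 FPKM in cold 1 to 3. Just outside it, 3 features with no control value averaged 9.99, 9.93 and 9.92 FPKM. The other edge is the zero in control. The features with the highest cold levels that had a value in only 1 control library reached or passed the level of the highest members. The first of these had 2.4 FPKM in control 2 and 865, 884 and 838 FPKM in cold 1 to 3. The second had 1.45 FPKM in control 3 and 626, 659 and 637 FPKM in cold, and the third had 0.9 FPKM in control 1 and 470.5, 457 and 492 FPKM in cold. These 3 resemble the top members in their cold levels and miss the rule by 1 small control value.

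Members varied more between cold libraries than features of the same level that were well expressed in control leaves. The rule bounds the cold values only from below, and the comparison is given without a test. In the class from 10 to under 20 FPKM, the median coefficient of variation was 38.2% for the 147 members and 12.04% for the 6046 features with at least 10 FPKM in each control library. From 20 to under 50 FPKM the medians were 29.4% and 8.48%, and from 50 to under 100 FPKM they were 26.8% (15 members) and 6.005%. At 100 FPKM or more they were 10.4% (21 members) and 4.00%. Members thus stood above the comparison features in each of the 4 classes. Features listed at 0 in all cold libraries and chosen by the reverse of the rule showed a spread of the same kind between control libraries, with medians of 42.9% (143 features), 34.2% (66), 21.9% (6) and 19.6% (2) in the same classes of control level. The spread is therefore not particular to cold-only features. Feature lengths and counts are not given.

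**Figure D2:**
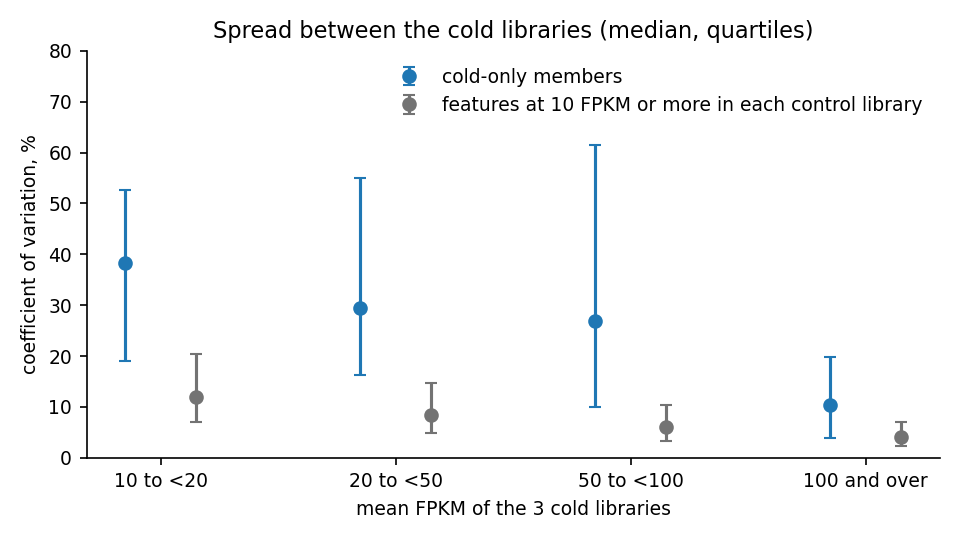
Coefficient of variation (%) between the 3 cold libraries by class of mean cold FPKM, as median (point) and quartiles (bars), for cold-only members (blue) and for features at 10 FPKM or more in each control library (grey). The member medians fall from 38.2% to 10.4% with level and lie above the grey medians, 12.04% to 4.00%, in each class.

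Single members covered the whole span between near-constant and one-sided. The most even, ranked 118, had 16.9, 17.02 and 16.8 FPKM in cold 1 to 3 (0.742%). The most uneven, ranked 163, had 3.89, 4.17 and 30.9 FPKM, with most of its signal in cold 3 (119%). In all, 38 members had a coefficient of variation under 10%, 145 lay from 10% to under 50%, and 66 were at 50% or more. None of these 66 averaged 100 FPKM or more, and 10 of the 21 members at that level were under 10%. In 144 members each cold library reached 10 FPKM, and 13 members had a cold library under 5 FPKM, the lowest value being 2.61 FPKM.

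No single cold library carried the set. Cold 2 was the highest library for 105 members (42.2%), cold 3 for 74 (29.7%) and cold 1 for 70 (28.1%). Among the other features at a mean of 10 FPKM or more in cold, the shares were 35.5%, 32.3% and 32.3% in the same order. Across the 249 members, which are not independent of each other, Pearson's r of log2(FPKM + 1) was 0.79 between cold 1 and cold 2, 0.77 between cold 1 and cold 3, and 0.76 between cold 2 and cold 3. For the other features at this level r was 0.88 to 0.89, and for the features chosen by the reverse rule it was 0.43 to 0.52 between control libraries. These correlations are within 1 condition and describe the likeness of libraries only.

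Because the rule used all 6 libraries, its choice was repeated on 2 control and 2 cold libraries and the features were read in the control and the cold library left out. The 9 possible choices picked between 477 and 541 features each. The left-out control library was listed at 0 for 61.4% to 68.7% of them. Among all features that met the cold thresholds in the same libraries, whatever their control values, the share was 2.75% to 3.37%. The chosen features were already at 0 in the other 2 control libraries, so this gap follows in part from the choice. It is a description only. The left-out cold library was at 1 FPKM or more for 72.1% to 78.5% and listed at 0 for 21.5% to 27.9%. Among all features at 10 FPKM or more in both other cold libraries, a stricter level, 0.734% to 0.884% were listed at 0 in the cold library that remained. A left-out control at 0 together with a left-out cold library at 1 FPKM or more was found for 43.6% to 52.4% of the features chosen. Between 7.57% and 11.8% were at 10 FPKM or more in the left-out control. Features shared between choices make the 9 values dependent, and no p-value is given.

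How well the pattern carried over depended on the level. For features averaging from 10 to under 20 FPKM in the 2 cold libraries used, the left-out cold library was listed at 0 for 29.5% (median of 9 choices, range 25.5% to 35.6%). At 100 FPKM or more it was listed at 0 for none of the 27 to 32 features in any of the 9 choices. Its lowest value there was 17.2 FPKM. In that class the left-out control was listed at 0 for 72.4% (67.7% to 77.8%), and the left-out cold library lay above the left-out control for every feature. From 10 to under 20 FPKM this last share was 62.5% (58.5% to 70.1%). These shares follow in part from the choice on the other libraries. No share over all features at the same cold level was computed beside them. A left-out control could still be high: the highest value was 31.8 FPKM in the class at 100 FPKM or more and 52.7 FPKM in the lowest class.

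**Figure D3:**
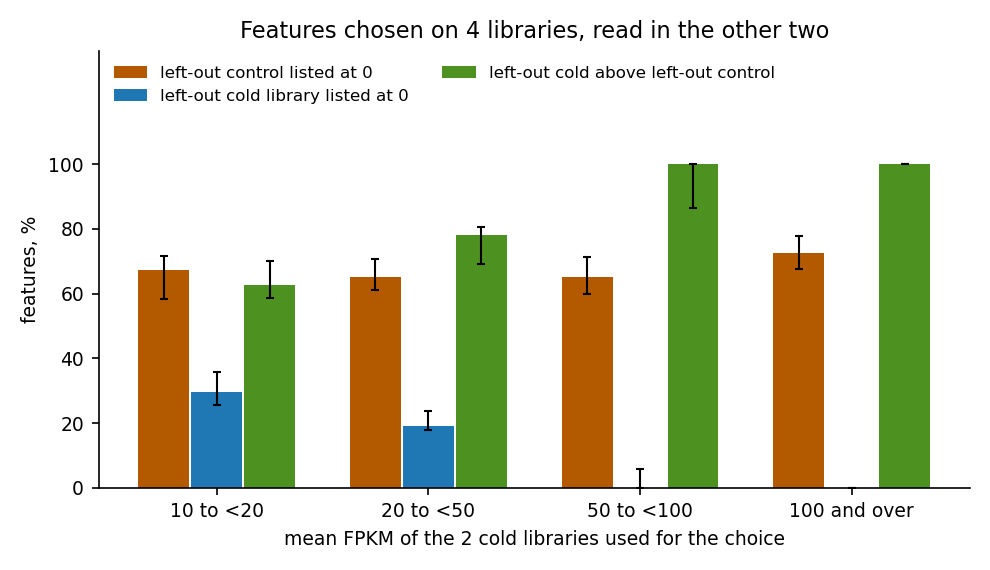
Features chosen on 2 control and 2 cold libraries and read in the control and the cold library left out, by mean FPKM of the 2 cold libraries used; bars are medians over the 9 choices and lines their range, in percent of the features chosen. The share with the left-out cold library at 0 goes from 29.5% in the lowest class to 0% at 100 FPKM or more, while the share with the left-out control at 0 stays between 65.2% and 72.4%.

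The reverse set, listed at 0 in all cold libraries and present in control by the same thresholds, held 217 features. It contained few high levels: 2 averaged 100 FPKM or more in control, against 21 cold-only features at that level in cold. Its share of the FPKM total in control was 0.178% ± 0.00191 (SD, n = 3), against 0.376% ± 0.00664 for the cold-only features in cold. The median levels were close, at 15.1 and 15.7 FPKM. Both rules use the same 6 libraries, and the difference was not tested.

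The reverse set was read in left-out libraries in the same way. The left-out cold library was listed at 0 for 61.2% to 65.7% of the features chosen as control-only, and both conditions held for 39.0% to 45.1%. Both ranges overlap with those of the cold-only features, but the medians were lower. They were 61.8% against 67.7% for the first share and 41.9% against 47.5% for the second. The differences were not tested.

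The names of features hold a component number and a number within the component, and the members were not spread evenly over them. The largest component held 299531 features. It contained 234 of the 249 members (94.0%), against 99.4% of all features that average at least 10 FPKM in cold. The other 15 members came from 15 different small components, 13 of which held that member alone. The highest of these 15 ranked 57 among members, with 67.0, 27.4 and 13.1 FPKM in cold 1 to 3. The 2 components with a second feature gave little more: that feature was listed at 0 in all control libraries in one, with 2.25, 0 and 2.24 FPKM in cold 1 to 3, and the other had 0, 2.4 and 0 FPKM in control and 0, 6.55 and 3.98 FPKM in cold. Only the second reached the level needed for the test described below, and it was not called.

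Inside the largest component, members gathered towards both ends of the numbering. The file does not say how the numbers were assigned. Cut into 30 intervals of 10000 numbers, the 3 intervals with the most members held 74 of the 234 (31.6%) but only 956 of the 30859 features that averaged at least 10 FPKM in cold. That is 7.74 members per 100 such features, against 0.535 in the other intervals. These 3 intervals covered the numbers 20000 to 29999 (30 members) and 270000 to 289999 (28 and 16 members). The same 3 intervals held 4 of the 209 control-only features of this component, or 1.30 per 100 of the 308 features that averaged at least 10 FPKM in control, against 0.648 in the other intervals. Control-only features were most frequent in the first 2 intervals, at 3.39 and 4.26 per 100. These rates rest on 2 of 59 and 4 of 94 features. The next interval had 1 of 108, so the counts are too small for a comparison along the numbering. Of the 21 members at 100 FPKM or more, 12 had numbers from 20000 to 29999 and 6 from 270000 to 289999. The intervals were picked for their counts, so the contrast is a description.

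Features with numbers next to a member were higher in cold more often than the table as a whole. For this, all 153984 features with a mean of at least 1 FPKM over the 6 libraries were compared between cold and control with limma on log2(FPKM + 1), and a feature was called at a Benjamini-Hochberg adjusted p under 0.05. Over all features tested, 15.8% were called higher and 19.8% lower in cold. With median-of-ratios scaling these shares were 19.1% and 16.5%, so which direction was more frequent depended on the scaling. Of the 453 non-members whose number was 1 above or below that of a member, 225 could be tested. Of these 225, 79 (35.1%) were higher, 26 (11.6%) were lower, and 120 did not pass the test. Their median log2 change was 0.58, against -0.13 for all features tested. With median-of-ratios scaling, 38.2% of these non-members that could be tested were higher and 11.1% lower. The medians were then 0.70 and 0.0085.

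The share fell with distance in number. It was 25.7% at 2 to 5 numbers from the nearest member, 20.96% at 6 to 20, 19.1% at 21 to 100 and 15.8% beyond 100. Calls in the other direction went from 11.6% beside a member to 20.5% beyond 100. The excess was present inside and outside the 3 intervals rich in members. Inside them 26 of 49 tested neighbours were higher (53.1%), against 26.4% of the other tested non-members there. Outside them 53 of 176 were higher (30.1%), against 15.5%. Neighbouring features may share reads with a member, so they are not independent measurements of it.

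**Figure D4:**
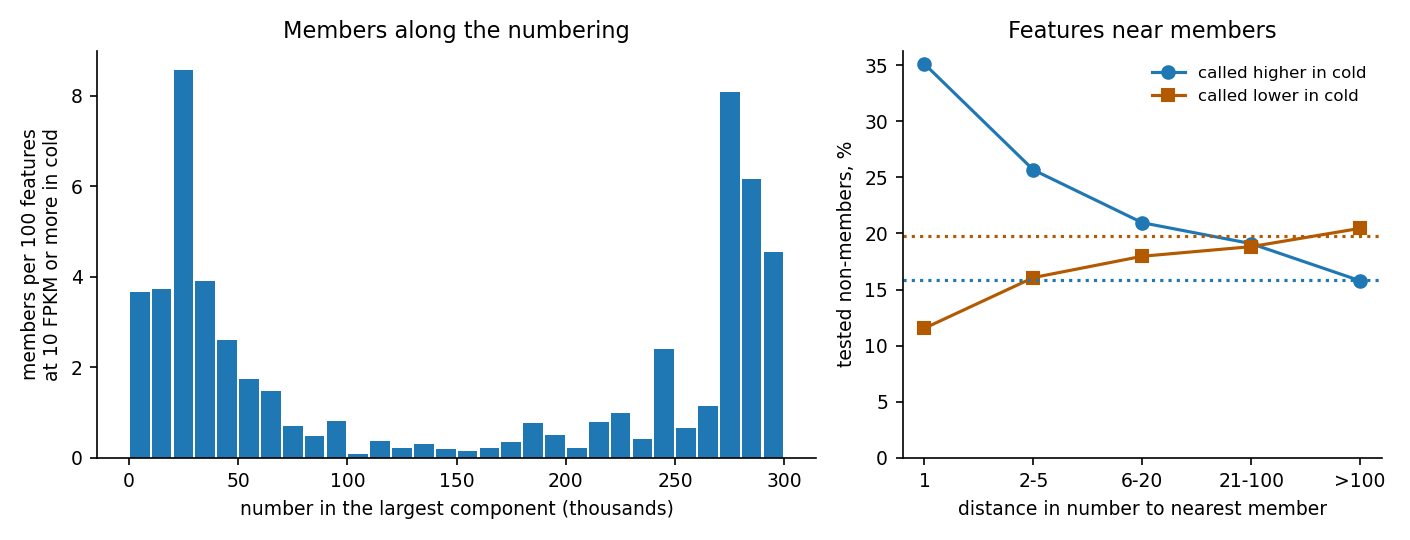
Left, members per 100 features at a mean of 10 FPKM or more in cold, in intervals of 10000 numbers of the largest component. Right, percent of tested non-members called higher (circles) or lower (squares) in cold (limma) by distance in number to the nearest member, with dotted lines at the shares of all tested features, 15.8% and 19.8%; the share called higher goes from 35.1% beside a member to 15.8% beyond 100 numbers.

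Among the neighbours, 5 of 453 (1.10%) were at 0.5 FPKM or less in each control library and averaged at least 10 FPKM in cold, against 0.0849% of all non-members of the component. These 5 include the features numbered 23437 and 23440, which lie in the stretch described next, picked after its values were seen. They also include the feature numbered 185464, with 0, 52.35 and 24.95 FPKM in cold 1 to 3. The feature numbered 34078 had 0, 0.41 and 0 FPKM in control 1 to 3 and 38.8, 37.35 and 34.9 FPKM in cold. The last, numbered 276232, had 0.17, 0.32 and 0.18 FPKM in control and 334, 310 and 306 FPKM in cold. None of the 453 was a control-only feature, a kind that makes up 0.0698% of all non-members, too few for a comparison. Another 28 (6.18%) had at least 10 FPKM in every control library, against 8.81% of all non-members. This last share was below that of all non-members, and the difference was not tested.

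The largest group of members lay in a stretch of 21 consecutive numbers, from 23430 to 23450, in which 19 features averaged more than 10 FPKM in cold. Of these 19, 7 were members, and the other 12 had a small value in at least 1 control library. The stretch was singled out after its values were seen, as the one with the most members when members at most 20 numbers apart are joined, and it carries no test. The members have no control value by the rule, so the level of the stretch is given over its 14 non-members. These summed to 5.31, 7.59 and 6.97 FPKM in control 1 to 3 and to 5414, 5383 and 5277 FPKM in cold 1 to 3. The group means were 6.62 ± 1.18 and 5358 ± 72.0 FPKM (SD, n = 3 each), which are 809-fold apart. With the members, the cold sums were 6411, 6534 and 6277 FPKM. The stretch was picked for its members, so these sums are a description.

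The 7 members of the stretch averaged between 40.0 and 316 FPKM in cold. They included the fifth and ninth ranked members given above. The one ranked 17 had 124, 123 and 121 FPKM in cold 1 to 3, a coefficient of variation of 1.56%. The one ranked 18 had 124, 118 and 118 FPKM, and the one ranked 11 had 140, 221 and 220 FPKM. None of the 21 control values of these 7 members was above 0, as the rule requires.

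The 12 non-members at 10 FPKM or more averaged between 28.6 and 1274 FPKM in cold, and their highest control value was 2.74 FPKM. Of their 36 control values, 11 were listed at 0. The highest of them had 0.19, 2.74 and 1.65 FPKM in control 1 to 3 and 1297, 1289 and 1236 FPKM in cold 1 to 3. Its neighbour 5 numbers below had 0, 1.34 and 0.63 FPKM in control and 772, 760 and 774 FPKM in cold. In this stretch the members differ from the non-members in having no control value, while the non-members reach higher levels. The remaining 2 features of the stretch stayed at or under 1.04 FPKM in all libraries. Levels fell on both sides of the stretch. The feature directly before it had 0.62, 0.71 and 0 FPKM in control 1 to 3 and 0.95, 0.71 and 1.56 FPKM in cold 1 to 3. The feature 2 numbers before the stretch had 0.65, 0.61 and 0.24 FPKM in control 1 to 3 and 6.72, 9.76 and 8.57 FPKM in cold 1 to 3, with no overlap between the groups. Beyond the other end, the next 2 features averaged 1.39 and 2.47 FPKM in cold.

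**Figure D5:**
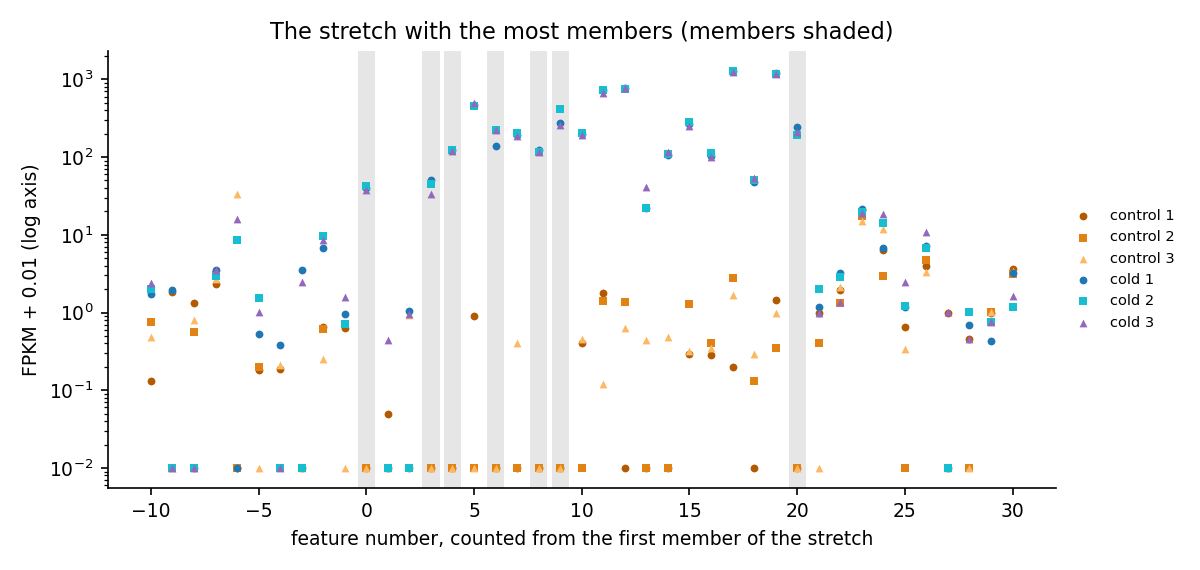
FPKM + 0.01 (log axis) of each feature in the 6 libraries, by its number counted from the first member of the stretch, with the members shaded; values listed at 0 lie at 0.01. From position 0 to 20, 19 of 21 features lie above 10 FPKM in all cold libraries and at or under 2.74 FPKM in all control libraries. The feature at position -2, with 6.72 to 9.76 FPKM in cold and at most 0.65 FPKM in control, is separated in the same direction at a lower level.

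Other groups of members were smaller. Joined in the same way, 28 of the 234 members fell into 10 groups of at least 2, and 7 of these groups were pairs. The only group of 3 had consecutive numbers and no feature between them. Its members had 74.4, 54.7 and 20.8 FPKM, 90.5, 17.2 and 112 FPKM, and 143, 82.2 and 96.2 FPKM in cold 1 to 3, so the library that was highest differed between them.

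Their sum was 308, 154 and 229 FPKM, and it was 0 in every control library. The group of 4 includes the second ranked member. Beside it, the next number is a member with 79.0, 125 and 91.3 FPKM in cold 1 to 3: the first was lowest in cold 2, where the second was highest. The other 206 members of the largest component had no second member within 20 numbers.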

How the data were processed

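The authors deposited 1 table of FPKM values, rounded to 2 decimals, for 365669 features in 6 libraries. Libraries were made with an Illumina TruSeq kit from Trizol-extracted RNA, per the labels' protocols. Bowtie2 2.0.6 and TopHat2 2.0.12 are named, with no role, per the submitters' processing notes. No source used here gives the reference, the counting program or a filter. Column names matched sample titles, which gave 3 control and 3 cold libraries.

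The deposited FPKM were not rescaled. All features with a mean of 1 FPKM or more, among them the 249 members, were fitted as log2(FPKM + 1) with limma 3.58.1 in R 4.3.3 (trended empirical Bayes, two-sided, no block, Benjamini-Hochberg over 153984 features, threshold 0.05). The fit and the estimate of relative depth were tested on simulated data. Calls were used for features other than members, which the same contrast had chosen. Control and cold libraries of the same number were not paired: their deviations from the group means correlated at -0.0022, -0.0061 and -0.012. Alternatives were other pseudocounts, filters, thresholds of the rule and scalings, a fit without trend, a replicate block, and the omission of single libraries. Without gene names, the 2 members with the highest mean cold FPKM are named by feature number and other members by rank. The stretch of numbers and the intervals rich in members were chosen after their values were seen. The members, lists and tests were chosen with earlier results of these data known.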

Additional observations from a re-analysis of the deposited data

How the results depend on the processing

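The number of cold-only features was 594 with a mean of at least 5 FPKM in cold and 102 with at least 20 FPKM, and it was 664 when 1 control library could be above 0, an alternative chosen after seeing the data. Leaving out 1 control library gave 370 to 411 features. This only loosens the rule, so all 249 members are kept by construction. Leaving out 1 cold library gave 323 to 345 features, of which 217 to 232 were members. The number of features was 249 with controls of at most 0.05 FPKM, 342 at 0.5 FPKM, and 262 with the median of ratios. The share of features chosen on 4 libraries that met the rule in both left-out libraries, 47.5% as a median, was 57.3% with at least 20 FPKM. By level, chosen after seeing the data, it was 43.0%, 53.3%, 63.6% and 72.4% in the 4 classes of increasing level. Of the neighbours of members, 79 were called higher and 26 lower (limma). These were 35.1% and 11.6% of those tested, against 15.8% and 19.8% of all features tested. With a filter at a mean of 5 FPKM 40 were higher, as fewer features were tested. With the filter at 1 FPKM, the share higher was 25.7% at 2 to 5 numbers and 20.96% at 6 to 20, against 35.1%. For neighbours outside the stretch it was 33.9%. With the replicate block 71 neighbours were higher and 24 lower, and without 1 library 63 to 71 and 24 to 29. In this balanced design the block leaves each log2 change as it was, so it could change no direction. Of the 2 component mates, 1 was tested as reported and both without a filter, none was tested at a mean of 5 FPKM, and none was called in any setting run. The mean cold levels of the 10 highest members moved by less than 1 SD when libraries were scaled to equal sums. The FPKM sums of the libraries were so close that this scaling could hardly move a mean, so it is a weak check. With the median of ratios, 2 of the 10 moved by more. These were the members ranked 4 and 6, which had the smallest coefficients of variation of the 10. Leaving out 1 cold library cannot move such a mean by 1 SD of the same values, so that setting is no check here. Without counts, counting error cannot be set apart from other spread.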

Other observations

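Features that missed the rule by 1 control library were more numerous than the members. With each cold library at 1 FPKM or more and a cold mean of at least 10 FPKM, 415 features had a value in exactly 1 control library: 162 in control 1, 132 in control 2 and 121 in control 3. That value had a median of 4.68 FPKM. It was at most 0.5 FPKM in 39 of them, at most 1 FPKM in 80 and at least 10 FPKM in 95. A further 733 features had values in 2 of the 3 control libraries.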
